A study of Mus musculus with 6 samples.

Results

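Prostaglandins and thromboxane are short-lived lipid signals, and this account describes 10 genes that make, destroy or sense them: Ptgs1, Ptgs2, Ptges, Ptgds, Ptgis, Tbxas1, Hpgd, Ptger1, Ptger3 and Ptger4. The genes were picked by symbol, and all 10 were found once each among the 25031 genes of the deposited count table. Kidney RNA was sequenced from male C57BL/6 mice without engineered alleles (genotype WT), 7 to 8 weeks old, whose kidneys on both sides had been cut off from blood for 23 minutes and then reperfused (IRI-AKI, ischemia and reperfusion causing acute kidney injury). The vehicle group (3 libraries) received saline, and the CePPy group (3 libraries) received 5 mg/kg of (+)CePPy, a positively charged polypyrrole nanoparticle doped with cerium, by vein right after the injury. Both groups therefore carried the injury, no uninjured kidney was analysed here, and no source used here gives the interval from injury to collection.

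Prostanoids start from arachidonic acid, which phospholipases free from membranes and which the cyclooxygenases encoded by Ptgs1 (constitutive in many cells) and Ptgs2 (strongly inducible) turn into the unstable prostaglandin H2. Terminal synthases then shape the product: Ptges yields prostaglandin E2, Ptgds prostaglandin D2, Ptgis prostacyclin and Tbxas1 thromboxane A2. Hpgd encodes the 15-hydroxy dehydrogenase that inactivates prostaglandins. Ptger1, Ptger3 and Ptger4 encode receptors of prostaglandin E2 that couple to calcium, to inhibition of cyclic AMP and to stimulation of cyclic AMP, respectively. In the kidney, prostaglandin E2 is known for tuning blood flow, renin release and the salt and water transport of the thick ascending limb and collecting duct.

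Total counts per library lay between 29762157 and 37415213, and 1 count equalled 0.0266 to 0.0333 CPM, the usual unit of counts scaled to a common library size, here with TMM normalization. The label kidney was checked against marker lists, and those of tubule segments, collecting duct, endothelium and fibroblasts were all detected. Urothelium markers were uneven, at 22.4, 15.6 and 3.3 CPM in vehicle and 4.61, 15.6 and 30.7 in CePPy. Mesothelium markers were uneven too, at 6.91, 5.65 and 1.37 CPM in vehicle and 2.05, 7.87 and 12.7 in CePPy. The bearing of this on the prostaglandin genes was not tested. In the 3 CePPy libraries the summed proximal tubule markers measured 8070, 3610 and 5390 CPM, and CePPy 2 was the library nearest to the vehicle mean for 47.1% of all genes tested and for 6 of the 10 prostaglandin genes. Separate animals behind the libraries are not stated in the labels, so p-values here measure the spread between libraries, which may be technical.

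Promoter sequences are shown for both cyclooxygenase genes and for Ptger3, the gene of this group with the lowest p. Other starts of these genes were not searched, so the windows do not tell how the whole promoters differ. Each is the 250 bases before the RefSeq start (GRCm38.p6, plus strand, written 5′ to 3′), at chr2:36230176-36230425 for Ptgs1, chr1:150099781-150100030 for Ptgs2 and chr3:157566626-157566875 for Ptger3. Capitals mark matches on either strand to the letters searched.
Ptgs1: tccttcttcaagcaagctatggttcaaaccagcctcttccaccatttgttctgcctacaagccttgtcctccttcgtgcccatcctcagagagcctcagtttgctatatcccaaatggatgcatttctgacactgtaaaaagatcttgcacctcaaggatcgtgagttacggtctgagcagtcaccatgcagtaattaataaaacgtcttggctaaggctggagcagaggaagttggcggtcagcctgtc
Ptgs2: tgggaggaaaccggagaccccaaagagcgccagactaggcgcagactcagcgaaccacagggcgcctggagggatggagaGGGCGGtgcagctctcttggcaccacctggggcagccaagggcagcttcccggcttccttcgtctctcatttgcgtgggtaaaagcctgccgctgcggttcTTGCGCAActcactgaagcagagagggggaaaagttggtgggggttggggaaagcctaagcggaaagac
Ptger3: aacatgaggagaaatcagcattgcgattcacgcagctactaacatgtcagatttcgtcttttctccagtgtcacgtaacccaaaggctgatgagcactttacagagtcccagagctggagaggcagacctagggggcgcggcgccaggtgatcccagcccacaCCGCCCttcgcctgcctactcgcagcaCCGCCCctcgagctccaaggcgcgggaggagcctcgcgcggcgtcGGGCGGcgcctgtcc

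The motifs searched, on both strands and in windows that reach 50 bases past the start, were TATAAA (a core promoter element), CCAAT (known to bind NF-Y), GGGCGG (the GC box of Sp factors), CACGTG (the E-box), TGACG (a short form of the cyclic AMP response element), TTGCGCAA (the C/EBP palindrome) and TGACNNNGC (the core of the antioxidant response element). Windows were found for 8 of the 10 genes, not for Ptgis and Ptger1. The Ptgs2 window held the C/EBP palindrome, whose first base lies 69 bases before the start, and this motif occurs in 0.183% of all 32851 promoter windows. Ptgs2 also held an E-box from base 17 and the TGACG element from base 14 after the start, which share bases with each other and are found in 7.15% and 20.8% of windows. GC boxes, present in 35.7% of windows, were found in Ptgs2, Ptges, Hpgd, Ptger3 and Ptger4, with 3 of them in the Ptger3 stretch. The Ptgs1 window had no match to any of the motifs, and its 250 bases held 48% G and C against 61.6% for Ptgs2 and 62% for Ptger3 (median of all windows 52.4%). TATAAA was found in Hpgd and Tbxas1 (13.6% of windows), CCAAT in Ptger4 (37.4%) and the antioxidant core in none of the 8 (12.4%). These matches describe letters and say nothing on binding.

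In CPM per kb of exon, which adjusts for gene length, the inducible prostaglandin E2 synthase gene led the 10 genes. The length joins the exons of all annotated transcripts, as in Tbxas1 with 9094 bases and 7 transcripts. The order of genes therefore depends in part on annotation. By CPM alone, Tbxas1 (9.8) stood above Hpgd (7.09) in the vehicle mean. Ptges stood highest in the vehicle libraries at 7.75 ± 0.383 CPM per kb (SD, n = 3), and its lowest library (7.31) lay above the highest library of every other gene. Hpgd followed at 4.21 ± 0.742 and Ptgs1 at 3.36 ± 0.0865, and the ranges of these neighbours touched. Ptgis (2.33 ± 0.734) and Ptger3 (2.06 ± 0.289) came next and overlapped each other. Ptger4 was lower at 1.34 ± 0.0361, and Tbxas1 (1.08 ± 0.314), Ptgds (1.05 ± 0.166), Ptgs2 (0.772 ± 0.189) and Ptger1 (0.588 ± 0.309) formed a tail in which each gene, Ptger4 included, overlapped the next.

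Set among the 14468 tested genes with a known exon length, these are moderate to low levels. Averaged over the 6 libraries, Ptges reached the 62.9th percentile, Hpgd the 52.4th and Ptgs1 the 45.6th, while Ptgs2 stood at the 17.8th. The constitutive cyclooxygenase gene was thus above the inducible one in all 6 libraries: the ratio of Ptgs1 to Ptgs2, per length, was 5.28, 3.42 and 4.84 in vehicle and 13.5, 4.02 and 5.06 in CePPy. The ratio was highest in CePPy 1, and the other CePPy libraries fell within the vehicle range. In the CePPy libraries the first 3 places were unchanged in order, with Ptges at 7.21 ± 0.584, Hpgd at 5.44 ± 1.53 and Ptgs1 at 4.02 ± 0.276 CPM per kb, and Ptgs2 came last at 0.694 ± 0.348.

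**Figure D1:**
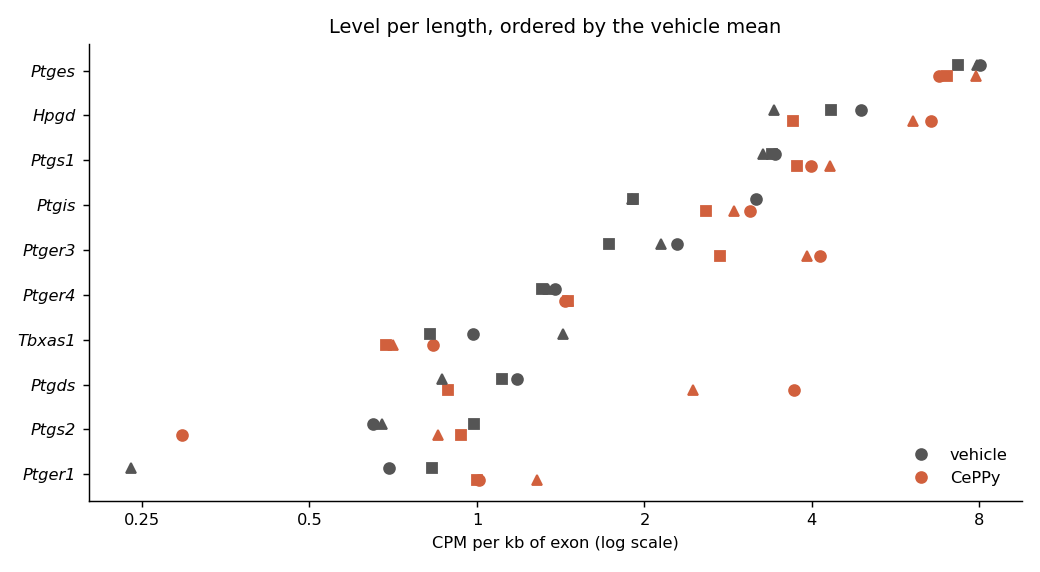
Level of the 10 genes in CPM per kb of exon (log axis), ordered by the vehicle mean, with 1 symbol per library (circle, square and triangle for replicates 1, 2 and 3). Ptges is highest and Ptgs2 and Ptger1 are lowest in vehicle, and CePPy 1 holds the lowest Ptgs2 value of all 6 libraries, at 0.295.

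The comparison of CePPy with vehicle asks whether the nanoparticles went along with another setting of this pathway in the injured kidney. No prostaglandin gene passed the edgeR test at an adjusted p under 0.05, as was true of nearly all genes: 1 of 15416 was called, or 0.00649%. All 10 genes had passed the filter on low counts. Levels in CePPy lay above those in vehicle with no overlap for 4 of the 10 (Ptgs1, Ptger1, Ptger3 and Ptger4), against 12.3% of all genes tested, and below with no overlap for 0 of 10, against 14%. An unadjusted p under 0.05 was reached by 4 of 10 (Ptgs1, Ptgds, Ptger3 and Tbxas1), against 19% of all genes. Mean values were higher after CePPy for 7 genes and lower for 3, with a median log2 fold change of 0.28 against 0 over all genes. With 3 libraries against 3, an exact permutation test of a single gene could not give a two-sided p below 0.1.

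**Figure D2:**
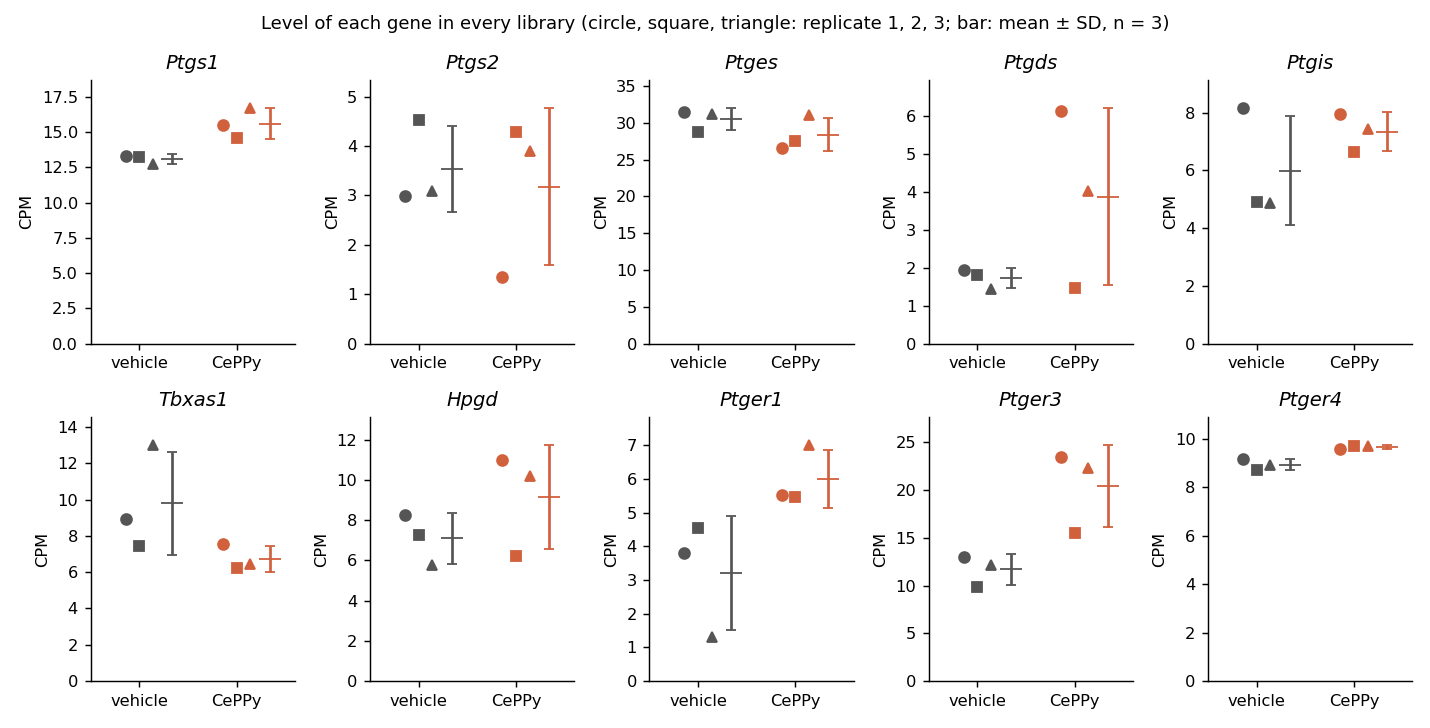
Level of each gene in CPM in the 3 vehicle and 3 CePPy libraries (circle, square and triangle for replicates 1, 2 and 3), with mean and SD as bars. The groups separate for Ptgs1, Ptger1, Ptger3 and Ptger4, and CePPy 1 stands apart from CePPy 2 and 3 for Ptgs2, where it is lowest at 1.35 CPM.

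Ptgs1 (ENSMUSG00000047250, chromosome 2, 36230426 to 36252272, plus strand, GRCm38, 5 annotated transcripts) measured 13.3, 13.2 and 12.7 CPM in vehicle and 15.5, 14.6 and 16.7 CPM in CePPy. The vehicle libraries were nearly level and each CePPy library lay above them. This gave a log2 fold change of 0.26 (SE 0.10, 95% interval 0.02 to 0.50, edgeR adjusted p = 0.236), a difference of 1.2-fold that did not pass. Leaving out single libraries moved it between 0.21 and 0.30. Markers of the collecting duct principal cell, a known site of Ptgs1, also had higher values: all 6 of 6, against 7781 of all 15416 genes tested. Their summed level was 217 to 283 CPM in vehicle and 325 to 450 in CePPy, with Aqp2 the largest part (means of 122 and 212). Groups did not overlap for 3 of the 6, against 12.3% of all genes. They overlapped for Aqp3, Scnn1b and Fxyd4, with log2 fold changes of 0.49, 0.20 and 0.22. The part of these cells in the Ptgs1 values was not tested. In bulk tissue, a different number of cells of a type and a different amount of RNA per cell cannot be told apart.

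Ptgs2 (ENSMUSG00000032487, chromosome 1, 150100031 to 150108227, plus strand, 2 transcripts) measured 2.98, 4.53 and 3.09 CPM in vehicle and 1.35, 4.28 and 3.90 CPM in CePPy, from 48 to 161 counts. The groups overlapped, and the lowest value belonged to CePPy 1 alone. The log2 fold change of -0.15 (with an SE of 0.42, edgeR adjusted p = 0.869) had a 95% interval of -1.11 to 0.81, which holds differences of either sign. Its direction depended on single libraries, as it became 0.22 without CePPy 1 and 0.07 without vehicle 2. Neutrophil markers, from cells that can carry Ptgs2, had lower values for 5 of the 5 tested, against 7635 of all 15416 genes tested. Their sums were 33.4 to 50.1 CPM in vehicle and 9.68, 22.4 and 16 in CePPy 1, 2 and 3. Macula densa markers (Nos1 and Pappa2), another known Ptgs2 site, summed to 0.853 to 1.46 CPM in vehicle and 1.13 to 1.86 in CePPy. Their part in the Ptgs2 values was not tested.

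Among the terminal synthases, Ptges (ENSMUSG00000050737, chromosome 2, 30889471 to 30929863, minus strand) had the smallest standard error of the group. It measured 31.5, 28.7 and 31.2 CPM in vehicle and 26.6, 27.5 and 31.0 CPM in CePPy, from at least 929 counts. CePPy 3 sat among the vehicle libraries, and the log2 fold change of -0.10 (with an SE of 0.09, edgeR adjusted p = 0.573) had an interval of -0.32 to 0.11. That interval was the narrowest of the 10 genes. The genes nearest to Ptges in pattern, by root mean square difference of centred log2 CPM over 6 libraries among 11093 genes, were Pole3 (0.0217), Fbxo45 (0.0326) and Usp37 (0.0331). With so few libraries, close matches like these describe the values and nothing more.

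Ptgds (ENSMUSG00000015090, chromosome 2, 25466709 to 25470046, minus strand) had the largest fold change and the least even one. It measured 1.95, 1.82 and 1.43 CPM in vehicle and 6.13, 1.46 and 4.03 CPM in CePPy. CePPy 1 and 3 exceeded every vehicle library, while CePPy 2 lay inside the vehicle range. The log2 fold change was 1.16 (SE 0.47, 95% interval 0.06 to 2.25, edgeR adjusted p = 0.242), and it was 0.66 without CePPy 1. Without CePPy 2 it was 1.55 with an edgeR adjusted p of 0.0349, in a fit that called 5.37% of all genes. The order of the CePPy libraries was that of the summed proximal tubule markers, whose vehicle libraries held 3060 to 3230 CPM. Summed thick ascending limb markers had the same order, at 6170, 3490 and 4210 CPM in CePPy 1, 2 and 3. Over all genes tested, CePPy 1 was farthest from the vehicle mean for 50.4% and CePPy 2 nearest for 47.1%. The summed fibroblast markers overlapped between groups, at 616 to 866 CPM in vehicle and 791 to 881 in CePPy. Whether either bears on Ptgds was not tested.

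Ptgis and Tbxas1 encode enzymes with opposing products, since prostacyclin relaxes vessels and keeps platelets quiet and thromboxane A2 does the reverse. Ptgis (ENSMUSG00000017969, chromosome 2, 167191805 to 167240604, minus strand) measured 8.16, 4.91 and 4.87 CPM in vehicle and 7.96, 6.62 and 7.43 CPM in CePPy. Vehicle 1 was the highest of all 6 libraries, so the groups overlapped, and the difference on the log2 scale was 0.29 (SE 0.23, edgeR adjusted p = 0.521) and became 0.58 without vehicle 1 and 0.17 without vehicle 2 or vehicle 3. Smooth muscle and pericyte markers, from cells known to express Ptgis, had lower values for 6 of 6 genes, against 7635 of all 15416 genes tested. Their sums were 414 to 585 CPM in vehicle and 276 to 338 in CePPy. Groups separated for 2 of the 6, both lower in CePPy, as for 14% of all genes tested. They overlapped for 4, with log2 fold changes of -0.08 for Myh11, -0.15 for Des, -0.15 for Notch3 and -0.47 for Cnn1. The 2 that separated, and that make up most of the sum, were the contractile genes Acta2, with a log2 fold change of -0.79 (edgeR adjusted p = 0.104), and Tagln, with -0.80 (edgeR adjusted p = 0.0739). Their part in the Ptgis values was not tested.

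Tbxas1 (ENSMUSG00000029925, chromosome 6, 38875404 to 39084585, plus strand) measured 8.94, 7.47 and 13 CPM in vehicle and 7.57, 6.25 and 6.43 CPM in CePPy. Vehicle 3 was well above the rest, and CePPy 1 lay just above vehicle 2. Tbxas1 had a log2 fold change of -0.54 (SE 0.22, 95% interval -1.04 to -0.03, edgeR adjusted p = 0.241), or -0.28 without vehicle 3. Macrophages and platelets are known sources of this enzyme. The summed macrophage markers (219 to 263 CPM in vehicle, 195 to 244 in CePPy) and platelet markers (6.39 to 8.49 and 4.6 to 8.13) overlapped between groups. Within each library, the ratio of Ptgis to Tbxas1 per length was 3.23, 2.33 and 1.33 in vehicle and 3.73, 3.75 and 4.09 in CePPy. The CePPy ratios were all above the vehicle ratios. This ratio was formed after the values were seen and carries no test.

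Hpgd (ENSMUSG00000031613, chromosome 8, 56294585 to 56321043, plus strand, 1 transcript), the inactivating enzyme, measured 8.24, 7.27 and 5.76 CPM in vehicle and 11, 6.22 and 10.2 CPM in CePPy. As with Ptgds, CePPy 1 and 3 exceeded all vehicle libraries and CePPy 2 did not. Hpgd thus differed by 0.37 on the log2 scale (SE 0.24, 95% interval -0.19 to 0.93, edgeR adjusted p = 0.44), ranging from 0.21 without CePPy 1 to 0.58 without CePPy 2.

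Among the receptor genes, Ptger3 had the lowest p of the group. Ptger3 (ENSMUSG00000040016, chromosome 3, 157566892 to 157645888, plus strand, 3 transcripts) encodes the EP3 receptor, which lowers cyclic AMP and is known in the thick ascending limb and collecting duct as a brake on vasopressin action. It measured 13, 9.86 and 12.2 CPM in vehicle and 23.5, 15.5 and 22.3 CPM in CePPy. Every CePPy library was above every vehicle library, with CePPy 2 nearest to them. The log2 fold change was 0.80 (SE 0.18, 95% interval 0.38 to 1.23), or 1.75-fold, and did not pass by edgeR (adjusted p = 0.112). DESeq2 called it, with 0.81 and an adjusted p of 0.00375, in a test that called 6.6% of all genes. Without CePPy 2, the value was 0.97 with an edgeR adjusted p of 0.0197, in a fit that called 5.37% of all genes. Since CePPy 2 was the library nearest to vehicle, leaving it out widens the difference. Leaving out other libraries gave log2 fold changes from 0.69 upward and no call.

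Markers of the thick ascending limb had higher values in the CePPy libraries, as Ptger3 did. All 6 of 6 had values in CePPy above every vehicle library, where 12.3% of all genes tested did so. None was at 0, and their median log2 fold change was 0.82, beside 0.80 for Ptger3. Their summed level was 2690, 3010 and 2700 CPM in vehicle and 6170, 3490 and 4210 in CePPy, so CePPy 1 stood highest and CePPy 2 lowest of the CePPy libraries for both. The vehicle libraries did not share an order, since vehicle 2 was the highest for the markers and the lowest for Ptger3. Slc12a1, the salt cotransporter that defines this segment, measured 88.8, 73.6 and 83.7 CPM in vehicle and 456, 123 and 214 in CePPy, a wider difference than that of Ptger3. Other markers also had higher values: 7 of 7 for proximal tubule, 6 of 6 for principal cells and 5 of 5 for intercalated cells. Groups did not overlap for 4, 3 and 2 of them. Proximal tubule sums (8070, 3610 and 5390 CPM in CePPy) also stood highest in CePPy 1 and lowest in CePPy 2. Principal cell sums (367, 325 and 450 CPM) stood highest in CePPy 3. The part of any of these cell types in the Ptger3 values was not tested. The genes nearest to Ptger3 in pattern were Banp (root mean square difference 0.076 log2 units), Igfbp5 (0.0847) and Pcx (0.0981), the last encoding pyruvate carboxylase. Igfbp5 measured 225, 187 and 247 CPM in vehicle and 437, 289 and 457 in CePPy.

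**Figure D3:**
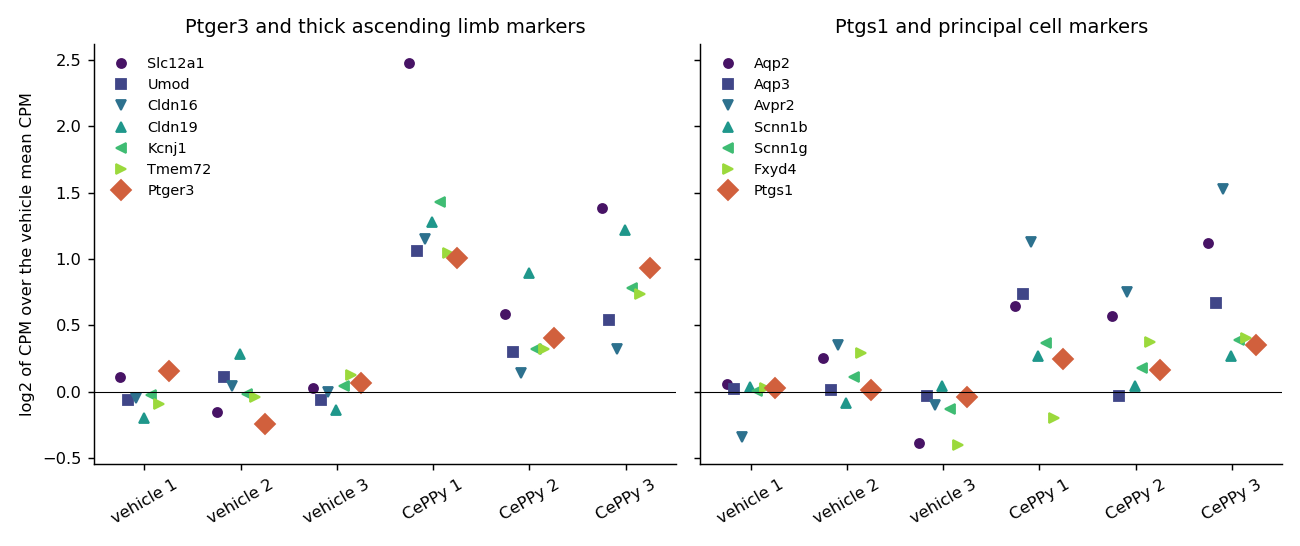
Log2 of CPM over the vehicle mean in each library for Ptger3 beside 6 thick ascending limb markers (left) and for Ptgs1 beside 6 principal cell markers (right); diamonds are the prostaglandin genes. Ptger3 lies below all 6 limb markers in CePPy 1 and within their spread in CePPy 2 and 3, while Ptgs1 (0.26) lies at the lower part of its markers, whose median is 0.40.

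Ptger1 (ENSMUSG00000019464, chromosome 8, 83666678 to 83672753, plus strand, 3 transcripts), the EP1 receptor gene, measured 3.79, 4.53 and 1.31 CPM in vehicle and 5.51, 5.48 and 7.00 CPM in CePPy. The groups did not overlap, and vehicle 3, with 44 counts against 136 and 154 in the other vehicle libraries, was far below all others. The log2 fold change of 0.90 (SE 0.40, 95% interval -0.03 to 1.83, edgeR adjusted p = 0.275) was 0.53 without vehicle 3. No source used here gives the handling of strand, so its level may hold reads from transcripts of the opposite strand, which was not tested.

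Ptger4 (ENSMUSG00000039942, chromosome 15, 5206661 to 5244187, minus strand, 3 transcripts), the EP4 receptor gene, measured 9.19, 8.71 and 8.91 CPM in vehicle and 9.57, 9.70 and 9.70 CPM in CePPy. The groups did not overlap, yet they were only 1.08-fold apart, or 0.11 on the log2 scale (SE 0.12, 95% interval -0.16 to 0.38, edgeR adjusted p = 0.636). On the opposite strand, it shares 1015 exonic bases with the processed pseudogene Gm15937, and 82 with Ttc33. The ratio of Ptger3 to Ptger4 per length, a balance between the receptors that lower and raise cyclic AMP, was 1.66, 1.32 and 1.6 in vehicle and 2.87, 1.87 and 2.68 in CePPy. All CePPy ratios lay above all vehicle ratios. This ratio too was formed after the values were seen and has no test. Other ratios formed per length overlapped between groups. Ptger3 to Ptger1 was 3.3, 2.09 and 8.94 in vehicle and 4.09, 2.72 and 3.05 in CePPy. Ptges to Ptgs2 ranged from 7.39 to 12.3 in vehicle and from 7.48 to 23 in CePPy. Hpgd to Ptgs2 ranged from 4.36 to 7.53 in vehicle and from 3.96 to 22.2 in CePPy. The remaining prostaglandin E2 receptor gene, Ptger2, had 4 to 12 counts per library and failed the filter.

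**Figure D4:**
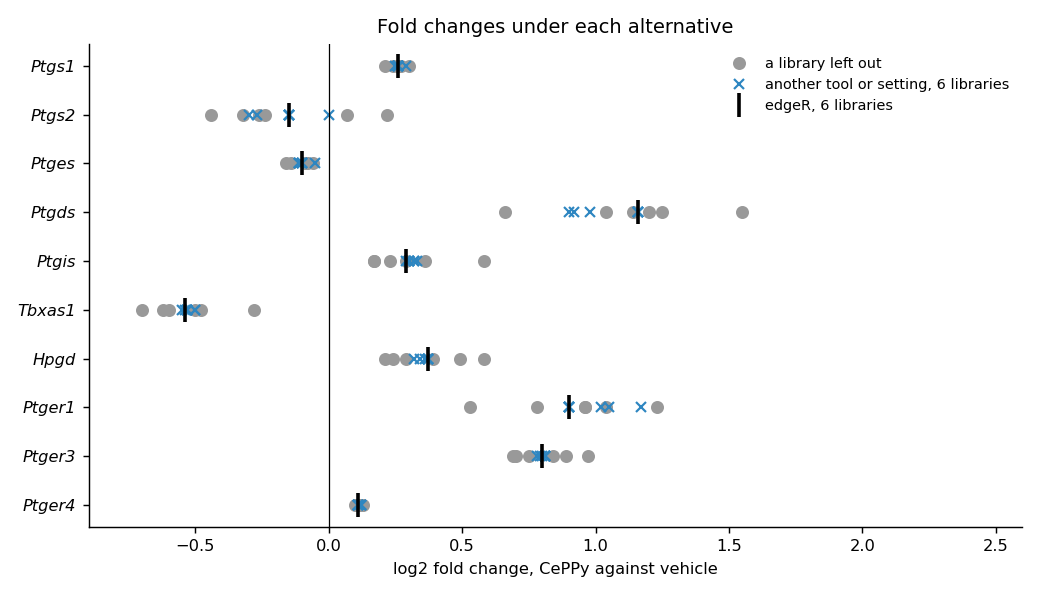
Log2 fold change of each of the 10 genes from the edgeR fit on 6 libraries (black bar), from other tools or settings on the same libraries (crosses) and with 1 library left out (grey dots). Only Ptgs2 crosses 0, from -0.44 to 0.22, while Ptger3 stays between 0.69 and 0.97 and Ptger4 between 0.10 and 0.13.

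Around these 10 genes, 30 further genes of prostanoid and leukotriene biology were listed by role beside 10 that failed the filter on low counts, and none of the 30 was called by edgeR. Groups did not overlap for 14 of the 30, with CePPy higher for 3 (12.3% of all genes tested) and lower for 11 (14% of all genes tested). Among the 7 tested genes for release of arachidonic acid, the median log2 fold change was -0.09 and groups overlapped for 6. Pla2g4a, the cytosolic phospholipase A2 that feeds cyclooxygenases, measured 18.5 ± 0.708 and 19.2 ± 2.41 CPM (SD, n = 3 per group). The remaining gene, Pla2g2e, a secreted phospholipase A2 at 0.908 ± 0.302 and 0.385 ± 0.169 CPM, had lower values in every CePPy library than in any vehicle library. Its values rest on only 6 to 40 counts per library.

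Other synthases and reductases spread widest, with groups that did not overlap for 6 of 8, 2 of them higher and 4 lower in CePPy, where 12.3% and 14% of all genes did so. Cbr3, a carbonyl reductase, measured 21.1, 10.4 and 8.05 CPM in vehicle and 2.08, 3.72 and 3.73 in CePPy, which is -2.05 on the log2 scale (SE 0.40, edgeR adjusted p = 0.097). Cbr1, the carbonyl reductase that can turn prostaglandin E2 into F2α, measured 93.4 ± 27.8 and 50.6 ± 4.30 CPM (-0.89, SE 0.19, edgeR adjusted p = 0.104). Akr1c18, a reductase of prostaglandin and progesterone metabolism, measured 1.48, 3.74 and 1.28 CPM in vehicle and 19.3, 11.5 and 6.2 in CePPy (2.51, SE 0.52, edgeR adjusted p = 0.102). Fam213b, a prostaglandin F synthase, measured 5.31 ± 0.597 and 8.17 ± 2.13 CPM (0.62, edgeR adjusted p = 0.196). DESeq2 called Cbr1, Cbr3 and Akr1c18, in the test that called 6.6% of all genes. Other genes named as prostaglandin E2 synthases had more CPM than Ptges, though these values are not scaled by length. Ptges2 measured 50.2 ± 3.33 in vehicle and 42.6 ± 4.05 in CePPy (-0.24, edgeR adjusted p = 0.237), and Ptges3 125 ± 7.74 and 113 ± 7.09 (-0.14, edgeR adjusted p = 0.412).

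Transport and inactivation genes also split. Ptgr1, a reductase of the second inactivation step, measured 14.3 ± 1.89 and 9.87 ± 1.31 CPM (log2 fold change -0.53, edgeR adjusted p = 0.147), and Abcc4, an exporter of prostaglandins, 76.1 ± 10.9 and 56.9 ± 9.77 (-0.42, edgeR adjusted p = 0.201). Ptgr2, which acts on the same 15-keto intermediates, measured 88.9 ± 3.55 and 117 ± 19.4 (0.39, edgeR adjusted p = 0.164). Slco2a1, the importer that clears prostaglandins from outside the cell, measured 133 ± 6.68 and 122 ± 29.7 (-0.13, edgeR adjusted p = 0.709), with CePPy 1 alone low at 87.3 CPM. The other receptor genes tested, Ptgfr, Ptgir, Tbxa2r and the receptor regulator Ptgfrn, all overlapped between groups, with log2 fold changes of -0.13, 0.15, 0.29 and -0.13.

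**Figure D5:**
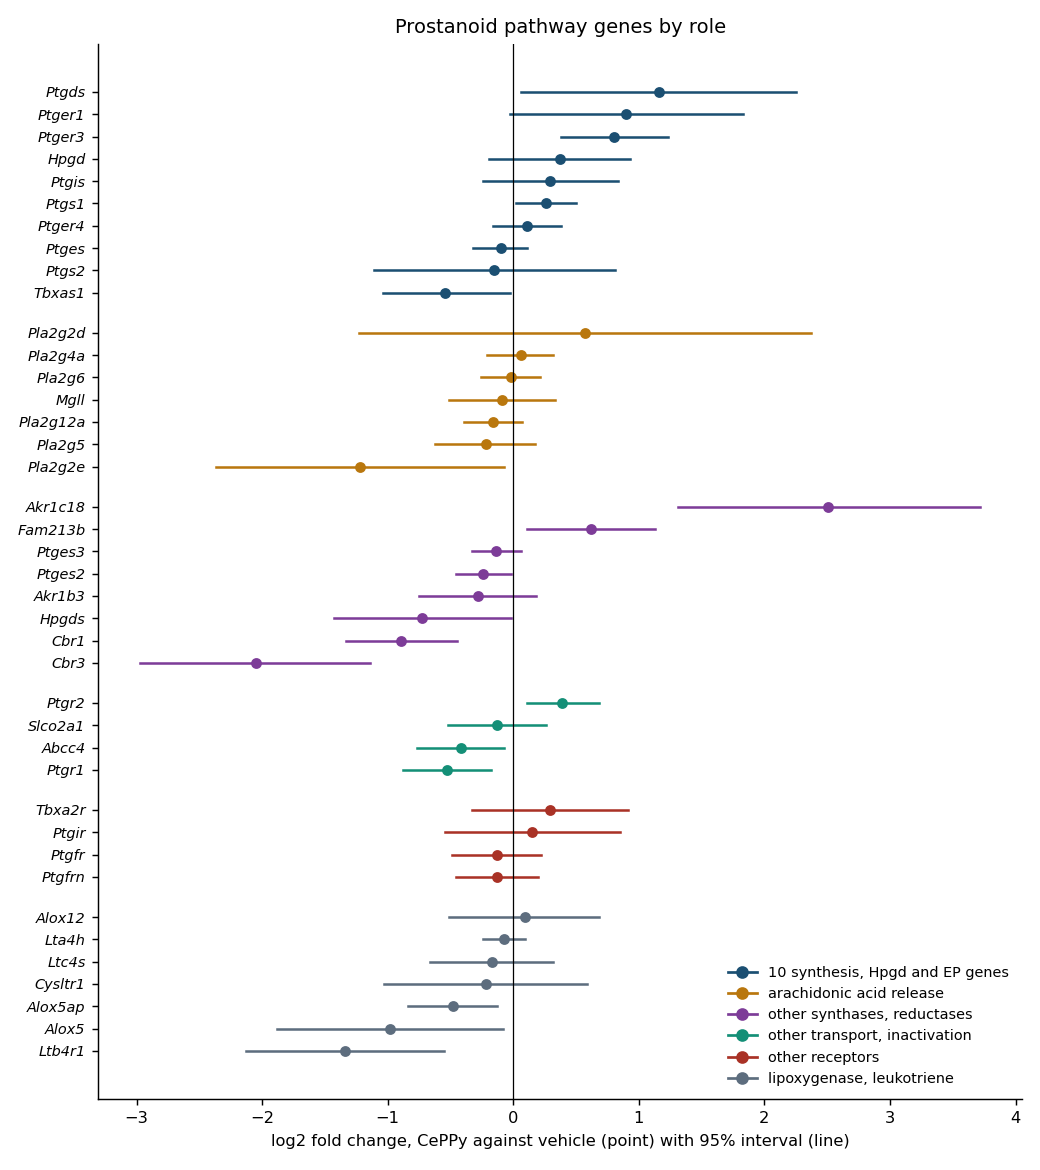
Log2 fold change of CePPy against vehicle (points) with 95% intervals (lines) for the 10 genes and 30 other tested genes of the pathway, coloured by role. The widest departures from 0 are those of Akr1c18 (2.51) and Cbr3 (-2.05), and the other receptors lie close to 0.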

How the data were processed

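The 6 mouse kidney libraries were each made from 2 µg of total RNA, per the labels' protocols. The authors deposited 1 table of raw read counts per gene, without normalization, whose columns were matched to samples through the labels. Of tools, the submitters' processing notes list Cufflinks, DESeq and TopHat2, all without a version, and of builds GRCm38. No source used here gives the counting program or its handling of strand. Genes were filtered with filterByExpr, scaled by TMM and tested by quasi-likelihood in edgeR 4.0.16 (R 4.3.3), group being the only term (4 residual degrees of freedom). P-values were adjusted by Benjamini-Hochberg over the 15416 genes that passed, and under 0.05 counted as called. The standard error is the fold change divided by the root of the F statistic. Exon lengths (union of exons) and coordinates come from GENCODE M21 (GRCm38), and promoters from RefSeq. All genes of the group are named, and of each pathway list up to 4 by lowest p. Pla2g4a, Hpgds, Ptges2, Ptges3, Ltc4s, Cysltr1, Alox12 and the single marker genes fall outside that rule and were chosen after their values were seen. Genes nearest in pattern had at least 5 CPM. Alternatives used DESeq2 1.42.0 and limma 3.58.1. The script was tested on simulated data. Within groups, library pairs differed by more than sampling noise (chi-square per degree of freedom of at least 19.7). CePPy pairs differed more, at 33.4 to 106, than vehicle pairs, at 19.7 to 28.2. The highest value was that of CePPy 1 against CePPy 2. The genes and lists were chosen with earlier results of these data known. A gene that was examined beside the group is not reported here.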

Additional observations from a re-analysis of the deposited data

How the results depend on the processing

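Of the 130 refits of single fold changes (10 genes under 13 alternatives), 125 kept their direction and their side of the threshold, 3 passed where the edgeR fit on 6 libraries did not (Ptger3 by DESeq2 and without CePPy 2, Ptgds without CePPy 2), and 2 reversed: Ptgs2, which lay between -0.44 (without CePPy 2) and 0.22 (without CePPy 1) and was 0.07 without vehicle 2. The number of genes called, 1 by edgeR, was 993 by DESeq2, 352 by limma-voom with sample weights, 63 without the low count filter and between 0 and 828 with a library left out, the highest without CePPy 2 and 6 without vehicle 2. It was 1 with RLE factors, with limma-voom and without mitochondrially encoded genes. Of the 10 prostaglandin genes, 1 was called by DESeq2, which called 6.6% of all genes, and between 0 and 2 with a library left out. Of the other pathway genes (30 past the filter on low counts), 4 were called by DESeq2 and between 0 and 2 with a library left out. For both sets the 2 calls came without CePPy 2, in a fit that called 5.37% of all genes. The cause of these differences was not tested. A replicate block gave 0 calls over all genes and 0 among the prostaglandin genes, and changed none of their directions. The libraries share only a number: deviations of same-numbered libraries correlated at -0.15, 0.0978 and -0.021 across genes, and not every library correlated best with its own number. Among the 10 genes, low counts limit Ptgs2, Ptgds and Ptger1, each with a library under 50 counts. Low counts also limit Pla2g2e, Alox5 and Ltb4r1 of the other pathway genes.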

Other observations

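Arachidonic acid also feeds the lipoxygenases, which start leukotriene synthesis, and this branch had lower values after CePPy in most of its measured genes. Of 10 listed genes, 7 were tested and 6 had lower values, against 7635 of all 15416 genes tested. Groups did not overlap for 4, all with CePPy lower (Alox5, Alox5ap, Lta4h and Ltb4r1), as for 14% of all genes. They overlapped for Ltc4s, Cysltr1 and Alox12, with log2 fold changes of -0.17, -0.22 and 0.09. None of the 7 was called by edgeR, where 0.00649% of all genes were. The median log2 fold change of the 7 was -0.22 against 0 over all genes. Ltb4r1, the receptor of leukotriene B4 that draws neutrophils, measured 1.25, 1.29 and 1.4 CPM in vehicle and 0.591, 0.425 and 0.533 in CePPy, from only 16 to 47 counts. Its difference was -1.34 on the log2 scale (SE 0.34, edgeR adjusted p = 0.124), and DESeq2 called it, among 6.6% of all genes. Alox5ap, which presents arachidonic acid to 5-lipoxygenase, measured 12.8 ± 2.20 and 9.15 ± 0.331 CPM (SD, n = 3 per group, log2 fold change -0.48, edgeR adjusted p = 0.165). Alox5 itself measured 0.948 ± 0.108 and 0.479 ± 0.123 CPM (-0.98, edgeR adjusted p = 0.231), from 12 to 36 counts. Lta4h, which makes leukotriene B4 and is expressed in many tissues, differed by only -0.07. Summed neutrophil markers did not overlap either, at 33.4 to 50.1 CPM in vehicle and 9.68 to 22.4 in CePPy, while macrophage markers did (219 to 263 and 195 to 244). Their part in these values was not tested.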
